A study of Mus musculus with 10 samples.

Results

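Genes of antioxidant defence and of the pentose phosphate pathway were followed in Ly6G+ cells from the infarcted left ventricle and from blood of mice with myocardial infarction (MI). The genes were chosen by function, as a list of 39 symbols. It held superoxide dismutases and catalase, glutathione peroxidases, enzymes of glutathione synthesis and recycling with the cystine importer, thioredoxins and glutaredoxin, peroxiredoxins and sulfiredoxin, glutathione transferases, the regulator NRF2 with its partner KEAP1 and the target genes Nqo1 and Hmox1, and enzymes that make NADPH. Of these, 38 were among the 28185 genes of the deposited table, and Sod2 is not analysed here. A mean of at least 10 normalized counts over all 10 libraries was reached by 36 members, and these were tested. The remaining members, Gsta4 and Me1, were below this mean, with 0 to 10.6 and 0.5 to 18.3 normalized counts per library, and have no test.

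All mice were male C57Bl/6J aged 12 to 16 weeks with ligation of the left coronary artery, and all cells were taken at day 3 after ligation. Blood libraries therefore also came from mice with infarction, and no library of a sham-operated mouse was used here. The groups MI (n = 3) and Blood (n = 2) had received no mesenchymal stromal cells (MSC). The groups MI + MSC (n = 3) and Blood + MSC (n = 2) had received MSC grown from the bone marrow of male C57Bl6 mice aged 6 to 8 weeks, used at passages 6 to 9 and given by subcutaneous injection of 1000000 cells at each of 3 sites. Ly6G, a surface protein of mouse neutrophils, was the handle for enrichment with magnetic beads, from the digested ventricle below the ligature or from blood. The study used single mice as its experimental unit, no label ties a blood library to a heart library of the same animal, and p-values measure the spread between these few libraries.

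Superoxide made by the neutrophil oxidase is turned into hydrogen peroxide by superoxide dismutases, and catalase, glutathione peroxidases and peroxiredoxins remove that peroxide. Glutathione and thioredoxin carry the electrons for these reactions and are returned to their reduced form by glutathione reductase and the thioredoxin reductases, which draw on NADPH from the pentose phosphate pathway and from isocitrate dehydrogenase and malic enzyme. In neutrophils the same NADPH also feeds the oxidase, and the transcription factor NRF2, held back by KEAP1, switches on many genes of glutathione and thioredoxin metabolism through the antioxidant response element.

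The letters of that element were looked up in the RefSeq promoters of the members (build GRCm38.p6, 250 bases before to 50 bases after each start site), where 33 of the 39 symbols had an entry. The loose pattern TGACNNNGC, on either strand, stood in 10 of the 33 member genes (30.3%) and in 3781 of all 27025 genes of that table (14.0%). The strict pattern TGACTCAGC, which is contained in the loose one, stood in 2 of the 33 members (6.06%), Prdx1 and Me1, and in 136 of all genes (0.503%). In 7 members the loose pattern lay wholly before the start site, and their windows are shown because these promoters belong to members of 7 different roles whose levels are described below. The windows read 5′ to 3′ on the strand of the gene, with the pattern, or its reverse complement, in capitals.
Prdx1: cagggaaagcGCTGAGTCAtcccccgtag
Nfe2l2: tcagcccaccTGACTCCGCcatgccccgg
Sod1: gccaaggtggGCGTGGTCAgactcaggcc
Txnrd1: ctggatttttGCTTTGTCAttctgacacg
Gclm: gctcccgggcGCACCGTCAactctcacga
Mgst1: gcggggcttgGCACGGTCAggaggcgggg
G6pdx: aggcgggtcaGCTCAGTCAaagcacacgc
On GRCm38.p6 these windows are chr4:116685456-116685484 (Prdx1), chr2:75704885-75704913 (Nfe2l2, minus strand), chr16:90220696-90220724 (Sod1), chr10:82859104-82859132 (Txnrd1), chr3:122245413-122245441 (Gclm), chr6:138140461-138140489 (Mgst1) and chrX:74428919-74428947 (G6pdx, minus strand). The pattern began 133 bases before the start site in Prdx1, 240 in Nfe2l2, 56 in Sod1, 92 in Txnrd1, 134 in Gclm, 56 in Mgst1 and 57 in G6pdx. A match of these letters describes the sequence only, and binding was not measured.

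Reads per library, recovered from the deposited values, ranged from 148594 in MI 13 and 268860 in Blood 21 to 8602711 in Blood + MSC 24, and 1 read is worth 8.40 normalized counts in MI 13. The cell markers did not show neutrophils alone. The 20 neutrophil markers summed to 3824 to 11123 normalized counts in MI, 5886 to 24853 in MI + MSC, 52220 to 63304 in Blood and 21576 to 32198 in Blood + MSC. Heart libraries carried cardiac muscle markers (12 genes, 8485 to 25440 in MI and 3332 to 13222 in MI + MSC, against 52.0 to 106 in blood) and endothelial markers (12 genes, 2973 to 3284 in MI and 735 to 1322 in MI + MSC, against 60.9 to 926 in blood). Ly6g itself had 16.8 to 26.9 normalized counts in MI, 4.75 to 13.8 in MI + MSC, 198 to 645 in Blood and 41.2 to 57.0 in Blood + MSC. Myh6, which defines heart muscle, was at or near 0 in blood (0 to 2.36). The 11 macrophage markers summed to 3345 to 15344 over all libraries, the 9 fibroblast markers to 514 to 1735, and the 8 T and B cell markers to 49.5 to 401. Blood 21 stood apart by its platelet markers (9 genes, 29978 normalized counts, against 1214 in Blood 22) and Blood 22 by its red cell markers (8 genes, 9563 against 488). In bulk RNA, fewer cells of a type and less RNA per cell cannot be told apart, and the part of other cells in the results below was not tested.

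Reads of the 38 members made up 0.326% to 0.643% of a library in MI, 0.660% to 0.886% in MI + MSC, 0.926% to 1.0% in Blood and 0.855% to 0.863% in Blood + MSC. The share was lowest in MI, and MI did not overlap with any other group, MI 13 having the lowest share. Per kilobase of exon, the highest member in every group was Gpx1, the cytosolic glutathione peroxidase, with group means per kb of 653 (MI), 877 (MI + MSC), 1664 (Blood) and 898 (Blood + MSC) normalized counts. Next in the heart, per kb, came Hmox1, which breaks down haem, with a mean of 484 in MI and 730 in MI + MSC, and then Txnip, the inhibitor of thioredoxin, with 239 and 283. Single MI libraries spanned 378 to 815 for Gpx1 and 220 to 662 for Hmox1 per kb, so the order of these neighbours was within their spread. In blood the order per kb was Gpx1, Txnip and Taldo1, with Txnip at 970 and 886 and Taldo1, a transaldolase of the pentose phosphate pathway, at 600 and 364 in Blood and Blood + MSC. Taldo1 ranked the 9th and the 12th in the heart groups, and Hmox1 ranked the 12th and the 10th in the blood groups.

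**Figure D1:**
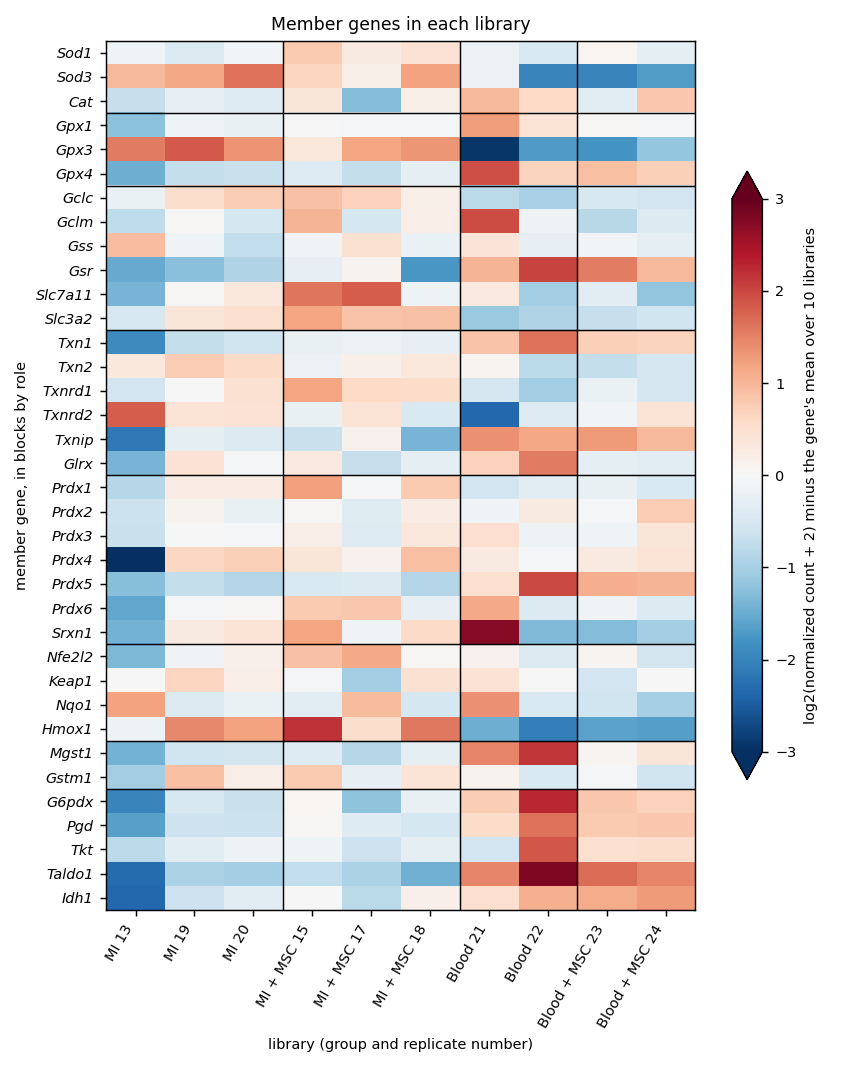
Heat map of the 36 tested members (rows, in blocks by role) in the 10 libraries (columns, by group). Colour is log2(normalized count + 2) minus the mean of that gene over the 10 libraries, and values beyond ±3 take the end colours. In the pentose phosphate block at the bottom, Taldo1 is blue in every heart library and red in every blood library. Single libraries reach the ends of the scale, such as MI 13 for Prdx4 (0 normalized counts) and Blood 21 for Srxn1 (777).

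The first comparison set MI against Blood, the cells of the infarct against circulating cells of untreated mice. The NADPH-making enzymes G6pdx, Pgd and Idh1, the transaldolase Taldo1, glutathione reductase and the thioredoxin Txn1 were lower in the heart. The peroxide-removing enzymes Gpx1, Gpx4 and Prdx5 were lower too. Haem oxygenase, the secreted enzymes Gpx3 and Sod3 and the cystine importer chain Slc3a2 were higher. By limma, 6 of 36 members were called higher (background 21.2% of 11549 tested genes) and 12 were called lower (background 13.5%), a call being a Benjamini-Hochberg adjusted p under 0.05 and a log2 fold change whose size is at least 0.5. Members thus had a share of 16.7% higher and of 33.3% lower. The median log2 fold change over the 36 members was −0.64, against 0.15 over all tested genes. With TMM scaling the members were split 3 higher and 9 lower, beside 1599 and 889 of all 11549 genes. The calls of Slc3a2, Gclc, Txnrd2, Idh1, Gpx1 and Glrx were lost. With library size scaling they were split 8 higher and 9 lower, beside 3777 and 813 of all genes, and those of Idh1, Gpx1 and Glrx were lost. The median of all genes moved to −0.07 with TMM and 0.63 with library size. Relative to all genes, the members' median was −0.79 with the deposited size factors, −0.64 with TMM and −0.77 with library size. Without MI 13 and Blood 21, 8 members were higher and 12 lower, beside 2299 and 2119 of all genes, and their median became 0.14 (all genes 0.10).

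In the pentose phosphate and NADPH block, 4 of 5 tested members were called lower in MI than in Blood (background 13.5%). Taldo1 (chr7:140972053-140982886 on GRCm39) had 58.8, 153 and 147 normalized counts in MI 13, 19 and 20, against 827 and 2102 in Blood 21 and 22. All 3 heart values lay below both blood values, and its log2 fold change of −3.56 ± 0.48 (SE) was the most negative of the members (adjusted p = 0.000472). For G6pdx, the glucose-6-phosphate dehydrogenase that opens the pathway, the values were 42.0, 124 and 108 in MI and 290 and 830 in Blood, a log2 fold change of −2.54 ± 0.55 (adjusted p = 0.00597). Pgd, the second NADPH-making dehydrogenase, had 151, 306 and 297 in MI and 692 and 1448 in Blood (−2.05 ± 0.41 on the log2 scale, adjusted p = 0.00398). The groups of both dehydrogenases did not overlap. Idh1, the cytosolic isocitrate dehydrogenase, had 33.6, 115 and 143 in MI and 254 and 378 in Blood (log2 fold change −1.88 ± 0.53, adjusted p = 0.0193). Tkt, transketolase, had 92.4, 127 and 143 in MI and 106 and 585 in Blood, which overlapped, and it was not called (log2 fold change −1.06, adjusted p = 0.15).

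Glutathione reductase, the glutathione peroxidases Gpx1 and Gpx4 and the microsomal transferase were lower in the heart as well. The peroxidase Gpx3 was higher, as given below. Gsr (chr8:34142551-34188192), which returns oxidized glutathione to its reduced form with NADPH, had 311, 372 and 477 normalized counts in MI and 1795 and 3612 in Blood, a log2 fold change of −2.73 ± 0.54 (adjusted p = 0.00377). Mgst1, a membrane-bound transferase with peroxidase activity, had 33.6, 60.6 and 63.3 in MI against 261 and 420 in Blood (−2.66 ± 0.36, adjusted p = 0.000427). Both genes had every heart library below every blood library. Gpx4, the peroxidase that acts on lipid peroxides, had 84.0, 143 and 148 in MI and 911 and 379 in Blood (log2 fold change −2.26, adjusted p = 0.00192). Gpx1, for removal of soluble peroxides, had 546, 1178 and 1106 in MI and 3088 and 1722 in Blood (−1.37, adjusted p = 0.0332). Of the other glutathione members, Gclc, the catalytic subunit of the rate-limiting step of glutathione synthesis, was higher in MI with 33.6, 56.7 and 65.9 against 21.2 and 18.8 (log2 fold change 1.25, adjusted p = 0.0235). Its modifier subunit Gclm was not called (−1.31, adjusted p = 0.0987), and its values of 565 in Blood 21 and 129 in Blood 22 were wide apart.

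In the thioredoxin block, 3 of 6 members were called lower (background 13.5%) and 1 was called higher (background 21.2%). Txn1, the cytosolic thioredoxin, had 42.0, 99.0 and 107 normalized counts in MI and 297 and 507 in Blood, without overlap (log2 fold change −2.31 ± 0.39, adjusted p = 0.00168). Txnip had 286, 1046 and 942 in MI and 3314 and 2833 in Blood (−2.22 ± 0.60, adjusted p = 0.0161). Glrx, glutaredoxin, which removes glutathione from proteins, had 58.8, 213 and 153 in MI and 254 and 465 in Blood (log2 fold change −1.45, adjusted p = 0.043). Txnrd2, the mitochondrial thioredoxin reductase, was called higher at 33.6, 11.5 and 11.8 against 0 and 5.85 (2.25 ± 0.74, adjusted p = 0.0354), but these values rest on few reads, 4 in MI 13, 0 in Blood 21 and 9 in Blood 22. Among the 7 peroxiredoxin and sulfiredoxin members, Prdx5 alone was called, lower in the heart at 168, 249 and 219 against 579 and 1626 (log2 fold change −2.20 ± 0.41, adjusted p = 0.00275). The other 6 of that block had log2 fold changes from −0.95 to 0.31.

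Higher in the heart were Hmox1, Gpx3, Sod3, Slc3a2, Gclc and Txnrd2. Hmox1 (chr8:75820241-75827217) had 387, 1164 and 1002 normalized counts in MI and 155 and 101 in Blood, so that the lowest heart library exceeded the highest blood library. Its log2 fold change was 2.59 ± 0.54, about 6.03-fold (adjusted p = 0.00472). Gpx3, a glutathione peroxidase that cells secrete, had 42.0, 51.9 and 36.0 in MI, and 0 and 2.60 in Blood, the blood values resting on 0 and 4 reads (log2 fold change 3.89 ± 0.54 with the pseudocount, adjusted p = 0.000582). Sod3, the extracellular superoxide dismutase, had 33.6, 38.4 and 54.6 in MI and 14.1 and 2.60 in Blood (2.33 ± 0.57, adjusted p = 0.0106), and the adjusted p was 0.0543 without Blood 22. Slc3a2 (chr19:8684245-8701108), the heavy chain of the cystine importer and of other amino acid transporters, had 143, 259 and 280 in MI and 91.8 and 107 in Blood (1.12 ± 0.32, adjusted p = 0.0203). The light chain of that importer, Slc7a11, did not share this with log2 fold change 0.02 (adjusted p = 0.98).

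**Figure D2:**
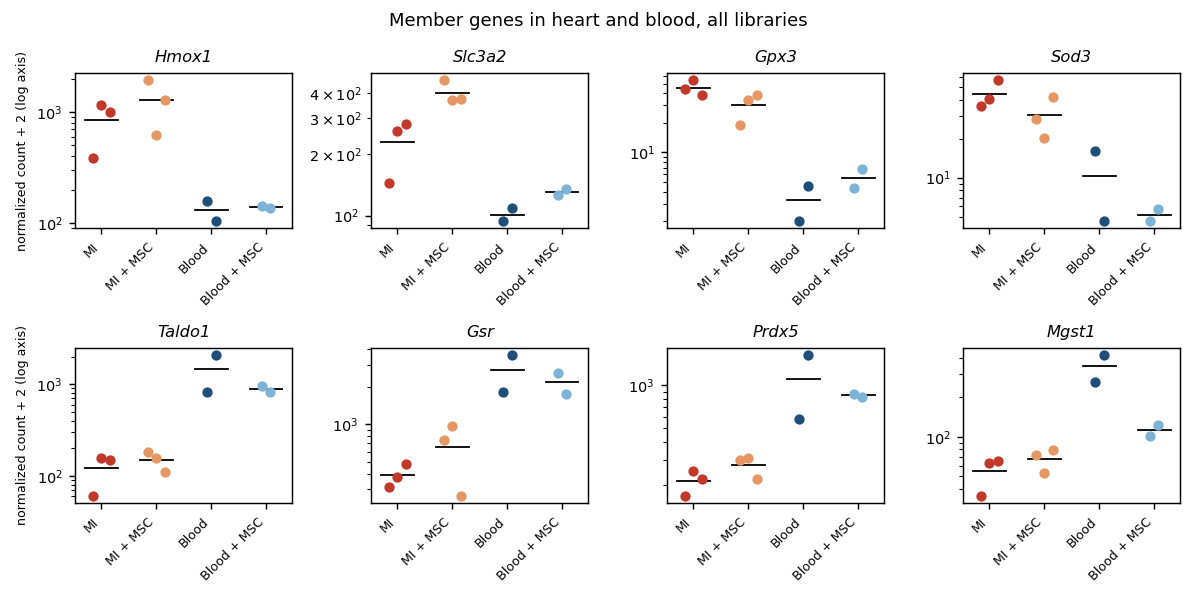
Normalized counts plus 2 (log axis) of 8 members in every library, by group; each point is a library and each bar the group mean. Hmox1, Slc3a2, Gpx3 and Sod3 lie higher in both heart groups than in the matching blood groups, and Taldo1, Gsr and Prdx5 lie lower. For Mgst1, Blood (261 and 420) lies above Blood + MSC (99.3 and 121).

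The second tissue comparison set MI + MSC against Blood + MSC, with other mice and other libraries than the first. Here 4 of 36 members were called higher (background 8.23%) and 3 lower (background 5.85%). All 7 were among the 18 members called in MI against Blood and had the same sign in both comparisons. The matching overlap over all tested genes is not given here, so this overlap is not read as particular to the members. Sod3, Gpx3, Slc3a2 and Hmox1 were higher, and Gsr, Prdx5 and Taldo1 lower. TMM scaling gave 2 higher and 3 lower, beside 501 and 809 of all 11549 genes. Library size scaling gave 6 higher and 3 lower, beside 1038 and 625. The median of all genes moved from 0.09 to −0.50 with TMM. The members' median differed from it by 0.01 under each of these scalings. Leaving out Blood + MSC 23 or Blood + MSC 24 left that group with 1 library, and calls among the 7 were lost in both cases. Without Blood + MSC 23 the log2 fold changes of the 7 kept their signs. They were 3.08 for Hmox1, −2.50 for Taldo1, 2.34 for Sod3, 2.11 for Gpx3, −1.60 for Gsr, −1.59 for Prdx5 and 1.56 for Slc3a2. The calls also changed when heart libraries were left out, with 3 higher and 1 lower without MI + MSC 18 (473 and 246 of all genes). Over all libraries edgeR called 7 higher and 10 lower (background 16.3% and 16.4%) and DESeq2 8 and 8 (background 17.8% and 11.2%).

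Hmox1 had 1935, 622 and 1297 normalized counts in MI + MSC 15, 17 and 18, against 141 and 136 in Blood + MSC 23 and 24 (log2 fold change 3.05 ± 0.54, adjusted p = 0.00431). Slc3a2 had 459, 365 and 372 against 125 and 133 (1.61 ± 0.32, adjusted p = 0.00799). Both thus had every heart library above every blood library, but TMM scaling ended both calls, with log2 fold changes of 2.44 for Hmox1 (adjusted p = 0.0525) and 0.997 for Slc3a2 (adjusted p = 0.294). Gpx3 was at 16.9, 32.1 and 35.9 in the heart against 2.36 and 4.71 in blood (2.42 ± 0.54, adjusted p = 0.0145). Sod3 was at 26.4, 18.4 and 40.0 in the heart against 2.63 and 3.70 in blood (2.49 ± 0.57, adjusted p = 0.0162). The blood values of these secreted enzymes rest on 9 to 28 reads a library. Taldo1 had 178, 154 and 108 in the heart against 954 and 821 in blood (−2.61 ± 0.48, adjusted p = 0.00566). For Prdx5, a peroxiredoxin found in several compartments of the cell, the values were 297, 308 and 220 against 865 and 822 (−1.62 ± 0.41, adjusted p = 0.0238). Gsr had 746, 964 and 264 against 2571 and 1753 (−1.88 ± 0.54, adjusted p = 0.0407).

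By limma, the other 11 members called in MI against Blood missed the threshold here. On the recovered reads, edgeR called G6pdx, Gclc, Gpx4, Idh1, Mgst1, Pgd, Txn1 and Txnip of them. DESeq2 called the same genes except G6pdx and Mgst1. Whether the 11 differ between the treatments is the interaction given below. In the limma fit, Gpx4 (−1.27, adjusted p = 0.0522) and Gclc (1.11, adjusted p = 0.0645) came closest to the threshold. G6pdx, at 179, 73.5 and 148 in MI + MSC and 306 and 280 in Blood + MSC, had a log2 fold change of −1.21 (adjusted p = 0.159). Txnrd2 had −0.26 (adjusted p = 0.84), against 2.25 in the untreated mice. Slc7a11 was at 1497, 1731 and 446 in MI + MSC and 394 and 217 in Blood + MSC. Its log2 fold change of 1.84 did not pass by limma (adjusted p = 0.0902), while edgeR and DESeq2 called it.

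**Figure D3:**
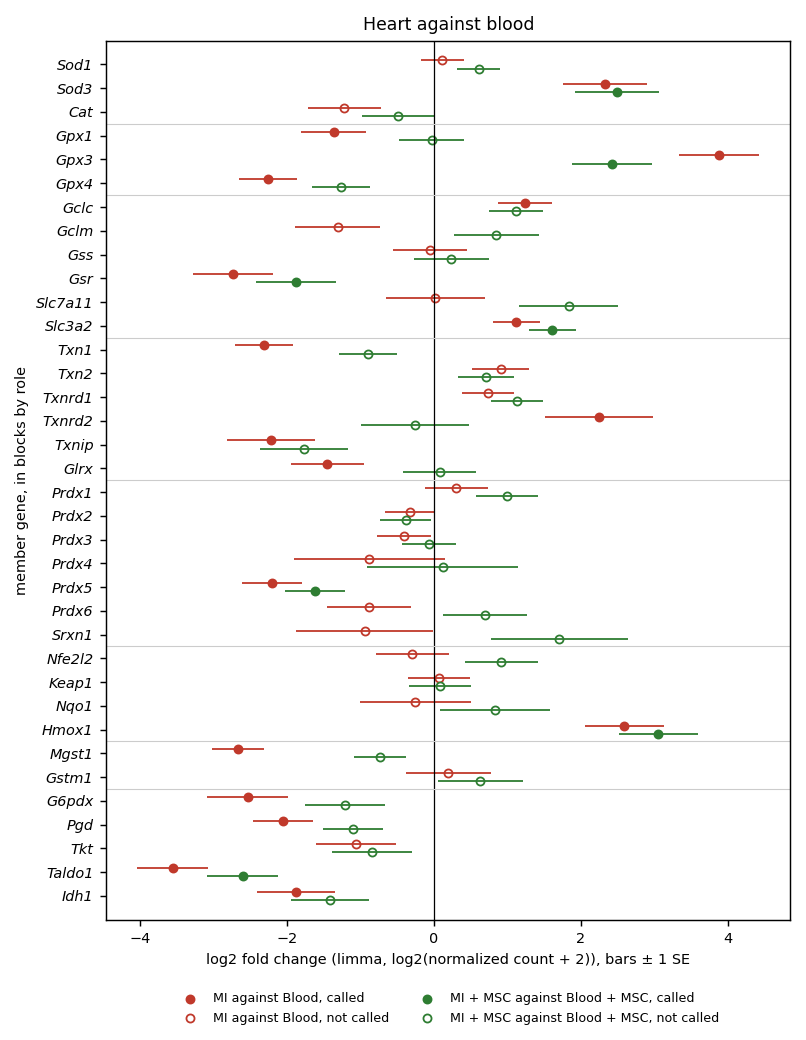
Log2 fold changes (limma, log2(normalized count + 2)) with bars of ±1 SE for the 36 tested members, MI against Blood in red and MI + MSC against Blood + MSC in green; filled points were called. All 5 tested members of the pentose phosphate and NADPH block lie left of 0 in both comparisons, and Sod3, Gpx3, Slc3a2 and Hmox1 are filled on the right in both.

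In the heart, the comparison of MI + MSC with MI asks what MSC under the skin did to cells of the infarct. The members lay mostly above MI, but none passed the test. By limma, 0 members were called higher and 0 lower (background 0% and 0% of 11549 genes), and edgeR (background 0% and 0%) and DESeq2 (background 0.182% and 0.476%) on the recovered reads also called 0 members. At an unadjusted p under 0.05, 6 members were higher (background 3.26%) and 0 were lower (background 4.74%). This count depended on single heart libraries. In either direction it was 0 without MI + MSC 15, 2 without MI 13 and 9 without MI 20. Beside these stood 293, 457 and 1385 of all 11549 genes. Without overlap between libraries, 6 members were higher (background 7.05%) and 3 lower (background 9.6%). The median log2 fold change was 0.43 over the members and −0.01 over all genes, and 30 of 36 members were above 0 (27 with library size scaling, 31 with TMM). Without MI 13, the shallowest library, the median was 0.13 and 24 members were above 0. With array weights, which give less weight to libraries that stand apart, 5 members were called higher and 1 lower, among 325 and 776 of all genes. Cardiac muscle and endothelial markers were lower in MI + MSC at the same time, with 12 of 12 and 11 of 11 tested markers below 0 and medians of −1.36 and −1.61 on the log2 scale. Macrophage markers were mostly above MI, 10 of 11 with a median of 0.87, and summed to 3345 to 8921 normalized counts in MI and 7728 to 15344 in MI + MSC. Limma and edgeR called 0 of these markers and DESeq2 called 5 endothelial ones, and 9 cardiac muscle, 11 endothelial and 3 macrophage markers had an unadjusted p under 0.05 by limma. Their part in the members' values was not tested.

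The 6 members with an unadjusted p under 0.05 were the cystine importer chains, Sod1, Txn1, Txnrd1 and Nfe2l2. Slc3a2, with the heart values given above, had a log2 fold change of 0.86 ± 0.29 (adjusted p = 0.542), and its libraries did not overlap (143 to 280 in MI, 365 to 459 in MI + MSC). Sod1, the copper and zinc superoxide dismutase, had 58.8, 48.1 and 60.2 normalized counts in MI and 112, 78.1 and 86.8 in MI + MSC (0.70 ± 0.26, adjusted p = 0.588). Its difference was as large without MI 13 (0.74). Txnrd1, the cytosolic thioredoxin reductase, had 134, 202 and 277 in MI against 456, 305 and 292 in MI + MSC (0.80 ± 0.32, adjusted p = 0.606). Txn1 had 140, 145 and 137 in MI + MSC, above its 3 values in MI (0.86 ± 0.35, adjusted p = 0.609), and was at 0.44 without MI 13. Thioredoxin and its cytosolic reductase thus lay above MI in every treated library, without passing the test.

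Slc7a11, the cystine-specific light chain, had the largest fold change of the members, with 185, 503 and 619 in MI against 1497, 1731 and 446 in MI + MSC (log2 fold change 1.44 ± 0.60, adjusted p = 0.611). MI + MSC 18 lay within the MI range, so the groups overlapped. Nfe2l2, the gene of NRF2, showed the same arrangement of libraries, with 294, 689 and 833 in MI against 1377, 1635 and 767 in MI + MSC (1.11 ± 0.44, adjusted p = 0.606). Keap1, its inhibitor, was at 67.2, 108 and 77.7 in MI against 64.9, 32.1 and 93.6 in MI + MSC (−0.49, adjusted p = 0.70). Hmox1 went from 387, 1164 and 1002 to 1935, 622 and 1297 (0.60, adjusted p = 0.71), with overlap. Nqo1, a quinone reductase that is a classic NRF2 target, stayed between 6.10 and 25.2 in all 6 heart libraries (−0.16, adjusted p = 0.94).

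Among the members whose libraries did not overlap, Gpx1 (1302, 1251 and 1249 in MI + MSC) and Pgd (480, 356 and 323) were above MI, with log2 fold changes of 0.50 and 0.66 that shrank to 0.15 and 0.34 without MI 13. Below MI were Gpx3 (−0.63, adjusted p = 0.70), Txn2, the mitochondrial thioredoxin, with 33.6, 46.1 and 40.1 in MI against 23, 29.8 and 33.2 in MI + MSC (−0.46, adjusted p = 0.70), and its reductase Txnrd2 with 6.76, 11.5 and 5.42 in MI + MSC (−0.98, adjusted p = 0.68). These values are low, and Txnrd2 rests on 5 to 10 reads in MI + MSC. The 7 peroxiredoxin and sulfiredoxin members had log2 fold changes from 0.22 to 1.23, all above 0, but Prdx4, the one of the endoplasmic reticulum, had 0 reads in MI 13 and fell to −0.20 without that library. The 6 members of glutathione synthesis, recycling and cystine import were also above 0 (0.04 to 1.44), and the lowest of them, Gss, which joins the last amino acid to glutathione, changed sign with library size scaling. In the pentose phosphate block the values were 0.08 for Tkt, 0.38 for Taldo1, 0.58 for G6pdx, 0.66 for Pgd and 0.87 for Idh1, and Tkt changed sign with library size scaling.

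**Figure D4:**
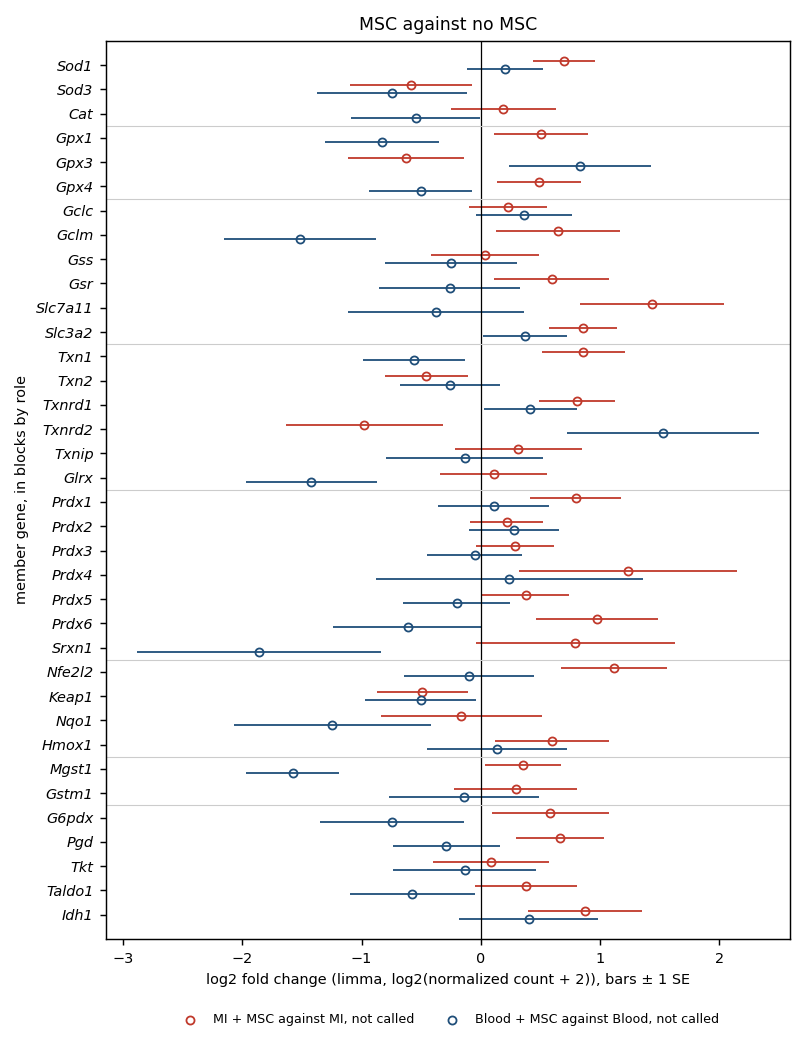
Log2 fold changes with bars of ±1 SE for the 36 tested members, MI + MSC against MI in red and Blood + MSC against Blood in blue; no point was called, so all are open. Most red points lie right of 0 (30 of 36) and most blue points left of it (25 of 36), and the blue bars are wider, as each blood group has 2 libraries.

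In blood, the comparison of Blood + MSC with Blood asks the same of circulating cells. By limma, 0 members were called higher and 0 lower (background 0% and 0%), edgeR called 0 (background 0% and 0%), and DESeq2 called Mgst1 as lower (background 0.0346% higher and 1.52% lower). At an unadjusted p under 0.05, 0 members were higher (background 4.35%) and 3 were lower (background 3.0%). Without overlap between libraries, 5 members were higher (background 21%) and 7 lower (background 15.4%). The median log2 fold change was −0.25 over the members and 0.11 over all genes, with 25 of 36 members below 0, but 28 were above 0 with TMM and 21 with library size scaling. Relative to all genes the members' median was −0.37, −0.32 with TMM and −0.34 with library size scaling. It became 0.12 above that of all genes without Blood 21, the library with few reads and many platelet transcripts. Neutrophil markers were mostly lower in Blood + MSC (14 of 18 tested below 0, median −0.82), as were platelet markers (9 of 9, median −3.79). Red cell markers (7 of 7, median 1.53) and T and B cell markers (4 of 5, median 1.44) were mostly higher. Limma and edgeR called 0 of these markers, and DESeq2 called 3 neutrophil and 7 platelet ones. Their part in the members' values was not tested.

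Mgst1, Gclm and Glrx had the unadjusted p under 0.05. Mgst1 had 261 and 420 normalized counts in Blood and 99.3 and 121 in Blood + MSC, without overlap (log2 fold change −1.58 ± 0.39, adjusted p = 0.672 by limma and 0.00245 by DESeq2). Glrx had 254 and 465 in Blood against 128 and 126 (−1.42 ± 0.55, adjusted p = 0.672). For both genes each untreated library stood above both treated ones. Gclm had 565 and 129 against 80.1 and 108 (−1.52 ± 0.64, adjusted p = 0.672), and its fold change was −0.46 without Blood 21. Srxn1, sulfiredoxin, which repairs over-oxidized peroxiredoxins, had 777 normalized counts in Blood 21 against 45.5 in Blood 22, while Blood + MSC had 46.0 and 56.5. Blood 21 alone thus carried the difference in Srxn1 (−1.86 ± 1.02), which was 0.16 without it. Without Blood 22, Srxn1 (−3.88) and Gclm (−2.58) were called lower, with adjusted p of 0.00788 and 0.0166, but then 1113 genes were called higher and 393 lower in all, and Blood was left with Blood 21 alone.

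The other members without overlap in blood had smaller or less certain differences. Below Blood lay Gpx1 (1325 and 1269 in Blood + MSC, log2 fold change −0.83), Txn1 (267 and 259, −0.56), Keap1 (44.7 and 67.5, −0.51) and Nqo1 (5.78 and 3.87, −1.25). Txn1 and Keap1 turned to 0.11 and 0.15 with TMM scaling. Above Blood lay Txnrd2 (7.62 and 11.6, log2 fold change 1.53), Idh1 (388 and 433, 0.40), Slc3a2 (0.37), Gclc (0.36) and Prdx4 (0.24). The adjusted p of these 9 members ran from 0.68 to 0.98. Prdx2, an abundant peroxiredoxin of red cells, had 134 and 174 in Blood, where the treated libraries had 139 and 247 (0.28, adjusted p = 0.90), beside red cell markers of 488 and 9563 in Blood and of 2623 and 5686 in Blood + MSC.

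**Figure D5:**
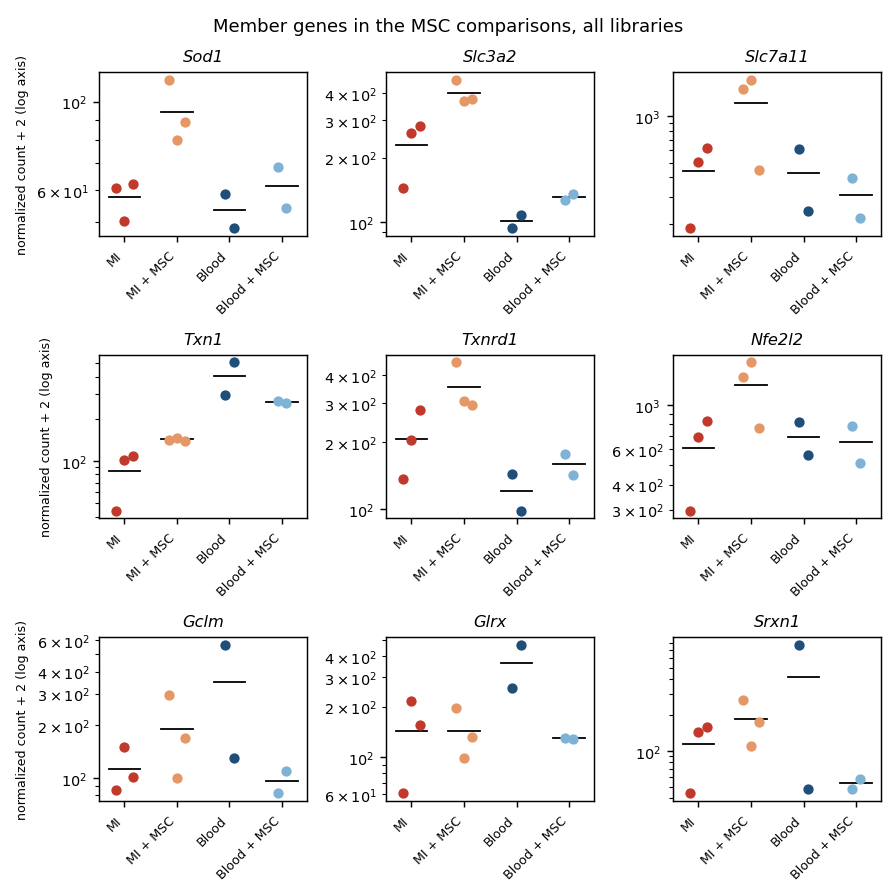
Normalized counts plus 2 (log axis) of 9 members in every library, by group; each point is a library and each bar the group mean. Sod1, Slc3a2, Txn1 and Txnrd1 lie above all MI libraries in MI + MSC, Slc7a11 and Nfe2l2 do so in 2 of 3 libraries, and in blood Srxn1 and Gclm are high in Blood 21 alone.

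The interaction of MSC and tissue tests whether the MSC difference itself differed between heart and blood. It was called for 0 members in either direction by limma (background 0% and 0%), and also by edgeR (background 0% and 0%) and DESeq2 (background 0.13% and 0.026%). At an unadjusted p under 0.05, 3 members, Mgst1, Gclm and Txn1, had a more positive difference in the heart (background 2.36%), and 1, Txnrd2, a more negative one (background 4.9%). The values were 1.93 ± 0.50 for Mgst1, 2.16 ± 0.82 for Gclm, 1.42 ± 0.55 for Txn1 and −2.51 ± 1.04 for Txnrd2 on the log2 scale, each with an adjusted p of 0.63. The members' median was 0.63 and that of all genes −0.12. Without MI 13 and Blood 21 the members' median was 0.34.

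Many members were not called by limma over all libraries with the deposited scaling and equal weights, and alternatives called some of them. Of these, array weights called Prdx1, Sod1, Slc7a11, Txn2 and Txnrd1 in MI + MSC against MI, among 325 and 776 of all genes higher and lower. In MI + MSC against Blood + MSC they called Prdx1, Prdx6, Sod1, Slc7a11, Txnrd1, Gclm, Nfe2l2, Srxn1 and Tkt, among 2926 and 2452 of all genes. DESeq2 also called Prdx1, Slc7a11 and Txnrd1 there. Cat was called in MI against Blood without MI + MSC 17. Other alternatives called further members, such as Gclm and Tkt with edgeR and DESeq2 in MI against Blood. Cat, catalase, lay between 32.1 and 107 normalized counts over the 6 heart libraries, whereas its blood libraries spread from 64.4 (Blood + MSC 23) to 163 (Blood 21). Prdx1, an abundant peroxiredoxin of the cytosol, ran from 185 (MI 13) to 392.2 (MI 20) without MSC, from 326 to 786 in the treated hearts and from 226 to 289 over the 4 blood libraries. Prdx6, which also acts on phospholipid peroxides, was highest in Blood 21 (834) and lay between 126 and 664 elsewhere. Prdx3, the mitochondrial peroxiredoxin, stayed between 33.6 and 77.7 in all libraries. For Gstm1, a mu-class transferase with near-identical neighbours whose reads can be split between them, the range was 8.40 to 38.4. Me1, the cytosolic malic enzyme, which was under the mean for testing, had 7.435 to 18.3 in the 6 heart libraries and 0.525 to 7.07 in the 4 blood libraries, on 1 to 12 reads in blood.

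Genes of the same pathways outside the list were counted in the same fits. Over 3 such lists, 14 of 66 tested genes were called higher and 9 lower in MI against Blood. These shares were near those of all tested genes (21.2% and 13.5%). In MI + MSC against Blood + MSC, 8 of the 66 were higher and 4 lower, beside 8.23% and 5.85% of all tested genes. Of 32 other antioxidant and glutathione genes tested, 8 were called higher and 5 lower in MI against Blood. The largest were Glo1, which detoxifies methylglyoxal (3.29 ± 0.79), Msrb3, a methionine sulfoxide reductase (3.01 ± 0.67), and Gstt2, a glutathione transferase (3.00 ± 0.60), with adjusted p of 0.00939, 0.00671 and 0.0038. In MI + MSC against Blood + MSC, 4 were higher and 3 lower, with Gstp1, a transferase, at −3.25 ± 0.41 (adjusted p = 0.000744), Msrb3 at 2.76 and Ggt5, which cleaves glutathione conjugates, at −2.30. Of 23 other NRF2 pathway genes, 4 were higher and 3 lower in the first comparison and 4 higher and 1 lower in the second. Maff, a small MAF protein that pairs with NRF2, led the second with 3.93 ± 0.56 (adjusted p = 0.00148), and it was at 2.72 in the first, beside Ephx1, an epoxide hydrolase, at 2.72 and Cbr3, a carbonyl reductase, at −2.42. Sqstm1, which binds KEAP1, was at 1.56 (adjusted p = 0.0165) and Esd, an esterase, at −1.69 in the second. Of 11 other pentose phosphate and NADPH genes, 2 were higher and 1 was lower in MI against Blood, and 0 were called in MI + MSC against Blood + MSC (limma; 1 had an unadjusted p under 0.05, and edgeR and DESeq2 each called 2). Nadk, the kinase that makes NADP, was lower (−2.80 ± 0.68, adjusted p = 0.0105), while Tigar, which sends sugar phosphates to the pathway, was higher (2.77 ± 0.57, adjusted p = 0.00458), as was Mthfd2, a folate enzyme of mitochondria (1.61). For MSC in the heart and in blood, 0 of the 66 tested genes of the 3 lists were called by limma, edgeR or DESeq2, and 5 in the heart and 4 in blood had an unadjusted p under 0.05, as did 925 and 848 of all 11549 genes, a share near that of these lists. The 5 in the heart were all NRF2 pathway genes above MI, namely Cbr3 (1.60), Maff (1.44), Osgin1 (1.25), Sqstm1 (0.97) and Mafk (0.81) on the log2 scale, and the 4 in blood, all above Blood, were Rpia (2.37), Glo1 (2.15), Tigar (1.42) and Glrx3 (1.12), with adjusted p from 0.54 to 0.67 by limma. These 9 were named after their values were seen. In the heart, 15 of the 23 other NRF2 pathway genes lay above MI and 8 below, with a median log2 fold change of 0.18. Among those below MI were Ephx1 (−1.26) and Nfe2l1 (−0.49), each without overlap between libraries.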

How the data were processed

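RNA-seq libraries of bead-enriched Ly6G+ cells were put into 4 groups by their labels, with 3 libraries for each heart group and 2 for each blood group. According to the study's methods, the authors trimmed reads, removed duplicates, mapped them to GRCm39 with STAR, used featureCounts for stranded counts per gene, dropped mitochondrial reads and divided by DESeq2 size factors. The deposited values are thus a normalized signal, and the deposited table named as raw held the same values. Within each library, 100% of values were whole multiples of that of 1 read (within 0.1 read), which gave the recovered reads. They ranged from 148594 to 8602711, so MI 13 and Blood 21 are the least precise libraries.

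limma (3.58.1, with trend) was fitted to log2(normalized count + 2) for 11549 genes with a mean of at least 10, with 1 mean per group over all libraries; fold changes on this scale understate low genes. A call needed a Benjamini-Hochberg adjusted p under 0.05 over all tested genes and a log2 fold change of 0.5 or more in size (interaction: adjusted p alone). An edgeR (4.0.16) quasi-likelihood test and DESeq2 (1.42.0) were run on the recovered reads. The alternatives were other pseudocounts, mean minimums and scalings, array weights, only the groups compared, each library left out, and, chosen after seeing the data, both shallowest libraries left out. The fits were tested on simulated data. Fold changes and tests of members were computed in R 4.3.3, and tables in Python 3.11.15.

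Members and lists were chosen with earlier results of these data known. Values per library are given for called members (the 8 with the largest absolute log2 fold change in a tissue comparison, and others), and, for MSC, for members whose libraries do not overlap and the 4 with the largest absolute log2 fold change; of other lists, the 3 largest called genes are named, and a few more chosen after their values were seen. Gene positions and exon lengths came from GENCODE for GRCm39, which held 27906 of 28185 identifiers. Gstm1 has near-identical neighbours, so its counts are uncertain.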

Additional observations from a re-analysis of the deposited data

Results flagged for a closer look

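For 3 of 36 tested members the libraries with and without MSC separated in opposite directions in heart and blood, as did 435 of 11549 genes (3.77%). Gpx1 was higher with MSC in the heart and lower in blood, with an interaction of 1.33 ± 0.62 (SE) on the log2 scale (adjusted p = 0.63, limma). Txn1 had the same arrangement, with 1.42 ± 0.55 (adjusted p = 0.63). Txnrd2 was lower with MSC in the heart and higher in blood, with −2.51 ± 1.04 (adjusted p = 0.63), on 0 to 69 reads per library. None of the 3 interactions passed the test.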

How the results depend on the processing

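No paired analysis was possible because the labels give the groups no shared replicate numbers. Of the members' counts of calls and medians, those not named here stayed within 1.5 times the count, or within the spread between libraries, under every alternative that was run. In MI + MSC against MI, array weights called 5 members higher and 1 lower, and Prdx4 turned to −0.10 on the log2 scale with them and to −0.20 without the 2 shallowest libraries; leaving out single libraries gave Prdx4 −0.20 to 1.98. In Blood + MSC against Blood, TMM scaling moved the median to 0.40 and turned Txn1 to 0.11 and Keap1 to 0.15, DESeq2 called 1 member lower, and without the 2 shallowest libraries the median was 0.10 and Srxn1 0.16. Leaving out single libraries gave 0 to 2 members called lower, medians of −0.29 to 0.10 and −3.88 to 0.16 for Srxn1. In MI against Blood, 3 members were called higher with TMM (beside 1599 of all genes) and 3 with only the groups compared (beside 1091). The median was −0.14 with library size scaling, 0.14 without the 2 shallowest libraries and −0.88 to −0.10 with single libraries left out. In MI + MSC against Blood + MSC, calls over all 11549 genes also rose, from 951 higher and 676 lower by limma over all libraries. They were 2176 and 1834 with only the groups compared and 2926 and 2452 with array weights. With edgeR they were 1883 and 1892, with DESeq2 2057 and 1296, and without the 2 shallowest libraries 2577 and 2187. In MI + MSC against Blood + MSC, members called higher and lower were 8 and 10 with only the groups compared, 13 and 11 with array weights, 7 and 10 with edgeR, 8 and 8 with DESeq2, and 9 and 11 without the 2 shallowest libraries; TMM called 2 higher, with a median of −0.49. Single libraries left out gave 0 to 7 higher and 0 to 8 lower. The median interaction was 0.24 with TMM and 0.20 with library size scaling. Members were called in the interaction only without Blood 22, which left Blood with Blood 21 alone, so those calls are not read. The cause of these shifts was not tested. The 2 shallowest libraries, MI 13 and Blood 21, limit low members most, since 3 reads are worth 25.2 and 21.2 normalized counts there.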
